A study of Mus musculus with 96 samples.

Results

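Of the 61 mouse embryonic stem (ES) cells measured in serum/LIF, 26 held Dnmt3l messenger RNA at 10 or more counts and 33 held none. These 26 Dnmt3l-expressing cells were compared with the 33 Dnmt3l-silent cells. The remaining 2 cells, with 5 and 9 counts, were left out of the comparison. The cells were chosen by their measured Dnmt3l count, so the Dnmt3l values below are a description, and Dnmt3l itself was not tested.

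DNMT3L is a relative of the de novo DNA methyltransferases that has no catalytic activity of its own. It binds and stimulates DNMT3A and DNMT3B, and its contact with the tail of histone H3 is blocked by methylation of lysine 4. In the germ line it is known for the setting of maternal imprints and for the silencing of retrotransposons, and ES cells express it until they differentiate. Cultures of ES cells in serum and LIF, leukaemia inhibitory factor, are known to be mixed, in which cells move between a naive state, marked by genes such as Zfp42 and Esrrb, and states closer to differentiation.

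All cells were single cells of the E14 line, labelled wild-type on a C57BL/6 background, and all were grown in serum/LIF. The messenger RNA of each cell had been parted from its DNA by the G&T-seq protocol, and each library is 1 cell in 1 well of a plate. Of the wells listed, 76 are labelled serum/LIF, 16 are labelled 2i (medium with kinase inhibitors) and 4 are empty controls; the 2i and empty wells were not analysed here. The labels name no separate cultures, so p-values measure the spread between cells that may all come from 1 culture.

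The libraries of the compared sets were close in depth. Total counts averaged 4032050 ± 636844 in expressing cells and 4455820 ± 1219950 in silent cells (SD, n = 26 and 33, permutation test, adjusted p = 0.142 over 5 properties). Genes detected averaged 8314 ± 978 in expressing cells and 8400 ± 814 in silent cells (permutation test, adjusted p = 0.715). The mitochondrial share of counts was 2.26% ± 0.873 in expressing cells and 1.83% ± 0.698 in silent cells (permutation test, adjusted p = 0.0853). The ES cell factor Pou5f1 was detected in 26 of 26 expressing cells and in 33 of 33 silent cells. Sox1, which marks neurectoderm, and Zscan4d, which marks 2-cell-like cells, were at 0 in every cell compared. Other markers of these types were detected: Pax6 in 7 expressing and 9 silent cells, Zscan4c in 1 expressing and 1 silent cell, and Zscan4f in 2 expressing and 0 silent cells. The trophectoderm marker Cdx2 was detected in 6 expressing and 12 silent cells.

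Among the expressing cells, Dnmt3l spanned a wide range. The count of the 26 cells ran from 10 to 6896, with a median of 439.5. As CPM, the count scaled to a total of 1000000 gene counts per cell, the level ran from 2.96 to 1860 CPM with a median of 100.8 CPM, and it averaged 220.0 ± 371 CPM (SD, n = 26). One cell, in well E09, held 32.5% of the Dnmt3l CPM summed over the expressing cells. Counts were under 50 in 6 of the 26 cells and 1000 or more in 8 others. The cells just inside the limit had 10, 14 and 19 counts, and those just outside it had 9 and 5 counts. A count of 0 in a silent cell allows up to 3 counts, or 0.442 to 1.24 CPM depending on the depth of the cell, which is below the lowest expressing cell. This limit covers counting error only and does not cover molecules lost before sequencing.

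Expressing and silent cells were not spread evenly over the plate. Row B held 8 expressing cells and 1 silent cell. Rows A and G each held 1 expressing cell and 7 silent cells. Rows A to D held 17 expressing and 16 silent cells, and rows E to H held 9 expressing and 17 silent cells. Fits within rows A to D, within rows E to H, without row B and with plate row as a covariate are given below.

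**Figure D1:**
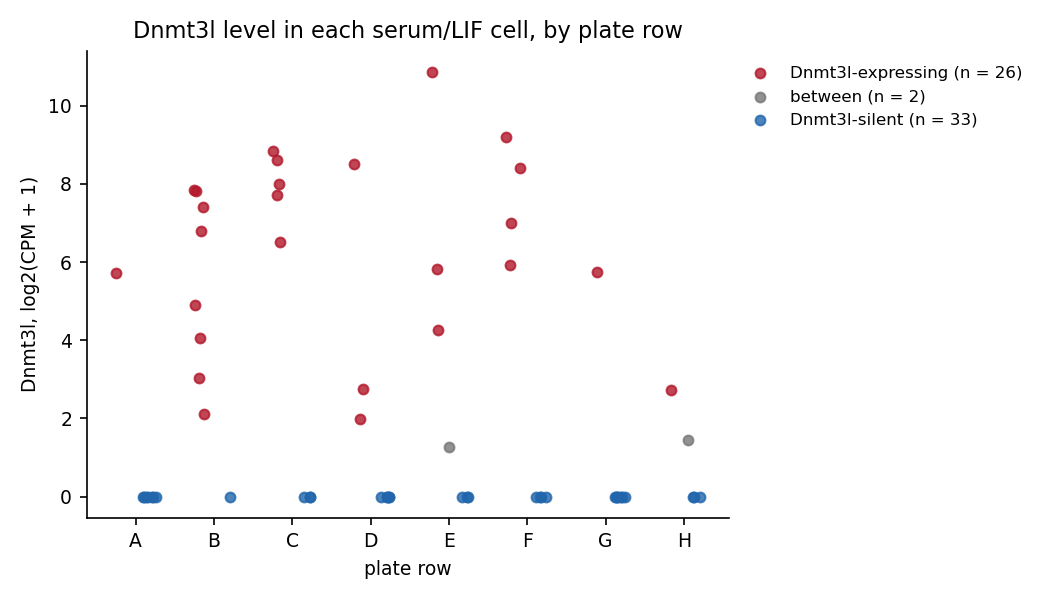
Dnmt3l level of each of the 61 serum/LIF cells, as log2(CPM + 1), by plate row. Each point is 1 cell: red for the 26 expressing cells, grey for the 2 cells between the limits and blue for the 33 silent cells. Row B holds 8 expressing cells and 1 silent cell, and the highest cell, in row E, reaches 1860 CPM.

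Dnmt3l lies on chromosome 10 at 78041947-78063622 on the plus strand (GRCm38, ENSMUSG00000000730). Its start overlaps Aire, a transcriptional regulator of thymic epithelium that is annotated on the opposite strand. Aire was detected in 7 of 26 expressing cells and in 2 of 33 silent cells. Reads from the overlap cannot be told apart, because no source used here says whether the counting used strand. Within 500 kb of Dnmt3l, 14 other genes had enough counts to be tested, and 0 of them passed edgeR's quasi-likelihood test with Benjamini-Hochberg adjustment over all genes, and 0 passed limma-trend. Over all genes tested edgeR called 0.927%, so 0 of 14 is near that share. At an unadjusted p under 0.05, 1 of the 14 was lower in expressing cells, beside 5.68% of all genes, and DESeq2 also called 1 lower. The gene with the unadjusted p under 0.05 was Cstb, an inhibitor of cathepsins, with a log2 fold change of -1.23 ± 0.37 (SE, adjusted p = 0.0999). The log2 fold changes of these 14 neighbours ran from -1.39 for Agpat3 to 1.28 for Lrrc3.

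Beyond Dnmt3l, the expressing cells differed from the silent cells in a small share of the transcriptome. Of 10784 genes tested by edgeR's quasi-likelihood test, 100 passed an adjusted p of 0.05, which is 0.927% of those tested. Of these, 46 genes (0.427%) were higher and 54 genes (0.501%) were lower in expressing cells. At an unadjusted p under 0.05, 419 genes (3.89%) were higher and 612 genes (5.68%) were lower. Counts for the gene lists below are to be read beside these shares. At 0.927%, a short list would hold few or no calls. On simulated counts the edgeR test made more false calls than its threshold allows, and limma-trend and DESeq2 were not tried on those counts. Limma-trend on log2(CPM + 1) called 354 of the same 10784 genes (3.28%), including 75 of the 100. Of all genes, it called 1.52% higher and 1.76% lower. Of the genes named below as called by edgeR, Esrrb, Gsn, Col4a1 and Pm20d1 did not pass limma-trend. DESeq2 called 198 genes (1.84%; 0.575% higher and 1.26% lower). The median log2 fold change over all genes tested was -0.058.

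The count of genes depended on the plate. In rows A to D alone, 45 genes passed, and in rows E to H alone 0 of 7568 passed in edgeR, where 195 genes (2.58%) had an unadjusted p under 0.05. Without row B, which was set aside after the data had been seen, 42 genes passed, 32 of them among the 100. With plate row as a covariate, also added after the data had been seen, 74 genes passed, of which 36 were among the 100, so 64 of the 100 were lost. With the block of rows (A to D or E to H) as a covariate 103 passed, 83 of them among the 100. Of the 100 genes, 51 had enough counts to be tested in rows E to H, and all 51 had the same sign there. The cells of those rows are among the cells in which the 100 were called, so this is no separate check. The filter on low counts also bears on the calls: 40 of the 100 genes reached 10 counts in 10 or more cells of the set where they were higher and in fewer than 10 cells of the other set, and for 7 of these no cell of the other set reached 10 counts. Of genes named below, they include Slc23a1, Morc1, Mok, Gm13231, Rpl10l, Gm6798, Esrrb, Rpl39l, Gm13034, Rarg, Klf2 and Tdh, all higher. Those lower include Scube3, Arhgef5, Pm20d1, Gsn, Caskin2, Krt19, Dsp, Mir7009, Wls and Col4a1. For all of these a difference was built into their being tested, so their p-values are a description.

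Among writers, readers and erasers of DNA methylation, Tet1 was the one that passed in edgeR. TET1 oxidises 5-methylcytosine and so works against the methyltransferases that DNMT3L assists. Tet1 ranged from 0.591 to 1924 CPM with a median of 376 CPM in expressing cells, against 0 to 1220.2 CPM with a median of 86.1 CPM in silent cells. The ranges overlapped, yet 23 of 26 expressing cells lay above the silent median and 2 of 33 silent cells lay above the expressing median. Tet1 had a log2 fold change of 2.00 ± 0.52 (SE, edgeR adjusted p = 0.0372, limma-trend adjusted p = 0.0142). The edgeR call was lost in 8 of 20 settings, among them without row B (1.99 ± 0.60, adjusted p = 0.149) and without the cell of fewest genes and the cell of highest mitochondrial share, both expressing (1.89 ± 0.52, adjusted p = 0.0631). Its log2 fold change was 2.44 ± 0.56 in rows A to D and 1.55 ± 0.94 in rows E to H, and 1.83 ± 0.70 with plate row as a covariate (edgeR adjusted p = 0.313).

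The partners of DNMT3L did not pass in edgeR or limma-trend. Dnmt3a, a de novo methyltransferase, had a median of 47.5 CPM in expressing cells and 12.7 CPM in silent cells, with a log2 fold change of 0.94 ± 0.85 (edgeR adjusted p = 0.859). Dnmt3b, the other de novo enzyme, had a median of 478 CPM in expressing cells and 280 CPM in silent cells, with a log2 fold change of 1.05 ± 0.50 (edgeR adjusted p = 0.478). Within the 26 expressing cells, Spearman's rank correlation with the Dnmt3l level was -0.353 for Dnmt3a and -0.0407 for Dnmt3b, as a description of cells that share a plate.

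The maintenance side also did not pass in edgeR. The maintenance methyltransferase Dnmt1 had a log2 fold change of -0.39 ± 0.50, and its recruiter Uhrf1 had -0.29 ± 0.39. The chromatin remodeller Hells had 0.16 ± 0.28, and its sign turned in some settings. Among the other erasers, Tet2 had 1.70 ± 1.06 and the thymine glycosylase Tdg had 0.11 ± 0.62, again with a sign that turned, while Tet3 had too few counts to be tested. The edgeR adjusted p-values of these 5 genes ran from 0.730 for Tet2 to 0.995 for Tdg. Over the 24 tested members of the methylation list, 1 was called higher and 0 lower, 5 were higher at an unadjusted p under 0.05 and the median log2 fold change was 0.39. Limma-trend called 2 of the 24 higher, Tet1 and the deubiquitinase gene Usp7 (limma-trend adjusted p = 0.0413), and DESeq2 called 1.

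Turning to histone H3 lysine 4, whose methylation DNMT3L senses, 16 genes of the enzymes that add or remove methyl groups there were tested. One passed in edgeR, Dpy30, a core subunit shared by the MLL and SET1 complexes. Dpy30 ranged from 139 to 909 CPM with a median of 374 CPM in expressing cells, against 43.8 to 590 CPM with a median of 203 CPM in silent cells. Dpy30 had a log2 fold change of 0.72 ± 0.18 (SE, edgeR adjusted p = 0.0304), and 22 of 26 expressing cells lay above the silent median. The catalytic subunits Kmt2a, Kmt2b, Kmt2c and Kmt2d had log2 fold changes of -0.84 ± 0.51, -0.09 ± 1.08, 1.11 ± 0.82 and -0.42 ± 0.60, none past the threshold in edgeR. Limma-trend called 2 of the 16 higher, Dpy30 and Kmt2c (limma-trend adjusted p = 0.0442), and DESeq2 called 2 higher. The edgeR call of Dpy30 was lost in 8 of 20 settings, among them without row B (adjusted p = 0.125) and without the cell of fewest genes and the cell of highest mitochondrial share (adjusted p = 0.0555). Dpy30 had 0.73 ± 0.21 in rows A to D and 0.56 ± 0.32 in rows E to H, and 0.76 ± 0.21 with plate row as a covariate (edgeR adjusted p = 0.07).

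Of 17 naive pluripotency genes tested, 5 were called higher in expressing cells and 0 lower, 10 were higher at an unadjusted p under 0.05, all 17 had a positive log2 fold change and the median was 3.06, against -0.058 over all genes. Limma-trend called 6 of the 17 higher and DESeq2 called 5. Some of the 17 met the filter on low counts mostly or only through expressing cells, among them Tdh, Klf2, Esrrb and Nr5a2, the last detected in 13 expressing and 4 silent cells. For such genes a higher level was partly built into their being tested, so the count of signs and the median are a description. Dppa5a, an RNA-binding protein of pluripotent cells, ranged from 155 to 11197 CPM with a median of 4482 CPM in expressing cells, against 0 to 9334 CPM with a median of 32.8 CPM in silent cells. The ranges overlapped, but all 26 expressing cells lay above the silent median, and 2 of 33 silent cells lay above the expressing median. The log2 fold change of Dppa5a was 3.06 ± 0.70 (SE, edgeR adjusted p = 0.0131, limma-trend adjusted p = 2.4e-06).

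The other naive genes called were often at 0, and Tdh, Klf2 and Esrrb met the filter on low counts through the expressing set alone. Zfp42, the zinc finger protein also known as Rex1, had a median of 43.7 CPM in expressing cells, where it was detected in 22 of 26, and a median of 0.448 CPM in silent cells, where it was detected in 19 of 33. Zfp42 had a log2 fold change of 4.56 ± 1.03 (SE, edgeR adjusted p = 0.012). Tdh, the threonine dehydrogenase that feeds one-carbon metabolism in mouse ES cells, was detected in 22 of 26 expressing and 12 of 33 silent cells, with a log2 fold change of 3.81 ± 1.02 (edgeR adjusted p = 0.0489). Klf2, a Krüppel-like factor of the naive network, was detected in 17 of 26 expressing and 5 of 33 silent cells, with a log2 fold change of 5.02 ± 1.30 (edgeR adjusted p = 0.0363). The nuclear receptor Esrrb was detected in 11 of 26 expressing and 7 of 33 silent cells, with 5.93 ± 1.32 (edgeR adjusted p = 0.0102, limma-trend adjusted p = 0.0504). Without the single cell of highest Dnmt3l, Tdh had 3.63 ± 1.05 (edgeR adjusted p = 0.0875). Without row B, Dppa5a, Klf2 and Tdh kept their direction with edgeR adjusted p-values of 0.076, 0.0678 and 0.0968, and Esrrb had too few counts to be tested. The log2 fold change of Zfp42 was 6.61 ± 1.37 in rows A to D and 1.89 ± 1.35 in rows E to H. It was 4.32 ± 0.96 in rows A to D and 2.38 ± 1.03 in rows E to H for Dppa5a, and 4.65 ± 1.36 in rows A to D and 3.22 ± 1.48 in rows E to H for Tdh. With plate row as a covariate none of the 5 naive genes passed, with edgeR adjusted p-values from 0.132 for Dppa5a to 0.387 for Klf2.

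Other members of the list had values short of the threshold. Nanog, the homeobox factor of the pluripotency core, had a median of 157 CPM in expressing cells and 86.2 CPM in silent cells, with a log2 fold change of 0.92 ± 0.76 (edgeR adjusted p = 0.834). Klf5 had medians of 46.8 CPM in expressing cells and 44.96 CPM in silent cells, with a log2 fold change of 0.07 ± 0.55. The maternal factor Dppa3, which protects against loss of methylation in the zygote, was detected in 7 of 26 expressing and 5 of 33 silent cells, with 4.83 ± 1.33 (edgeR adjusted p = 0.0599). Of 17 genes listed as shared by naive and later states, Rif1 and Dppa5a were called higher by edgeR and 0 were called lower. Dppa5a is also a member of the naive list, so its call is counted in both. The median log2 fold change of the 17 was 0.59, while limma-trend called 6 higher and DESeq2 called 2. Pou5f1 ranged from 498 to 2812 CPM with a median of 1334 CPM in expressing cells, against 74.1 to 1630.1 CPM with a median of 1057 CPM in silent cells, a log2 fold change of 0.59 ± 0.20 (edgeR adjusted p = 0.19).

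Per cell, a naive score averaged the z-scored log2(CPM + 1) values of the 17 measured members and was put in units of its SD over the cells. The score ran from -0.473 to 2.33 with a median of 0.182 in expressing cells, against -1.43 to 2.47 with a median of -0.601 in silent cells. Above 1 SD lay 8 of 26 expressing cells and 2 of 33 silent cells. Among expressing cells, Spearman's rank correlation of the Dnmt3l level with the score was 0.104 over 26 cells. The cell with the highest Dnmt3l, E09, held 6896 Dnmt3l counts beside 10 Zfp42 and 0 Esrrb counts, and its score was -0.315. Well F05 held 1147 Dnmt3l counts beside 1 Zfp42 count and a score of -0.273. In the other direction, the silent cells H03 and H10 held 4445 and 4682 Zfp42 counts and 508 and 206 Esrrb counts, with scores of 2.00 and 2.47 and no Dnmt3l count. Both of these cells were also low in counts from chromosome 14, as were the expressing cells B05, E01 and F01. The 5 cells held 1.32% to 2.08% of their counts there, against 2.40% to 3.75% in the other 54 cells compared.

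**Figure D2:**
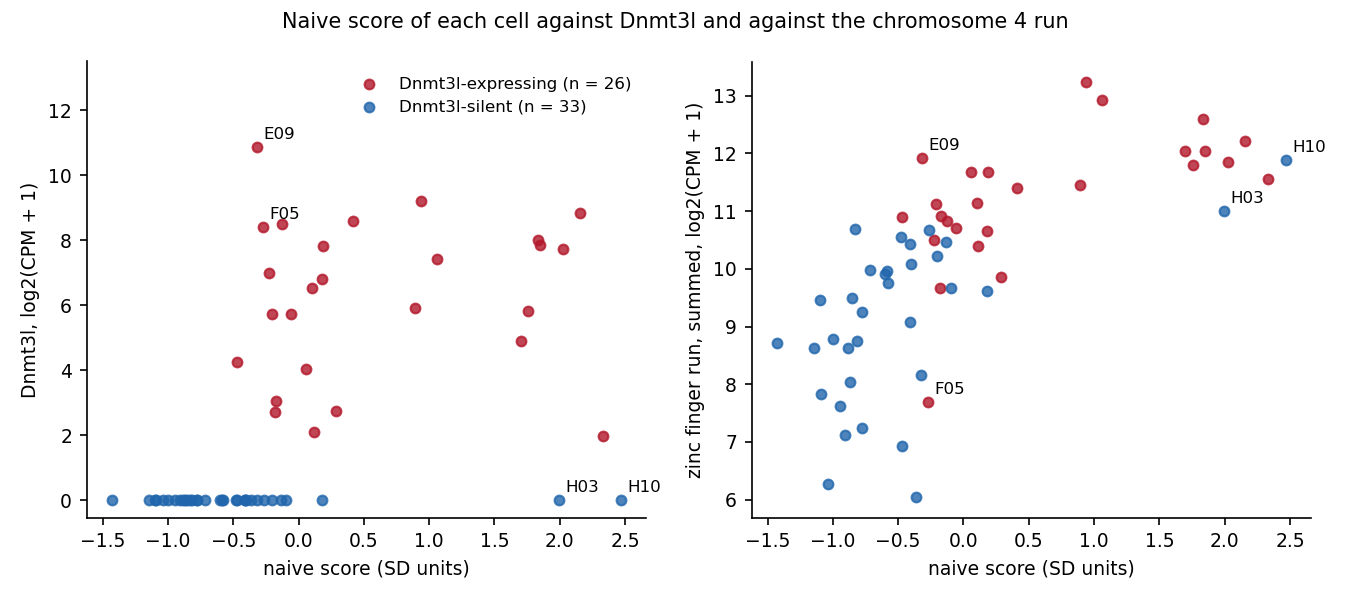
Naive score of each cell, in SD units, against the Dnmt3l level (left) and against the summed level of the chromosome 4 zinc finger run (right), both as log2(CPM + 1). Red points are the 26 expressing cells and blue points the 33 silent cells. Expressing cells appear at scores from -0.473 to 2.33, and the silent cells H03 and H10 lie among the highest scores.

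With the naive score as a further covariate, 12 genes passed, 10 of them among the 100. The naive genes are part of that score, so their own calls cannot be read there. The 10 shared genes were Slc23a1, Rhox13, Morc1, Rpl10l and Gm13231, which were higher in expressing cells, and Scube3, Caskin2, Pm20d1, Gsn and Arhgef5, which were lower. All of these but Rhox13 met the filter on low counts only through the set where they were higher. Rhox13 had 10 or more counts in 9 expressing cells and 1 silent cell, so it met the filter mostly through the expressing set. For all 10 a difference was thus wholly or largely built into their being tested, and the list is a description. Slc23a1, a sodium-dependent vitamin C transporter, passed the filter on low counts through the expressing set alone, with 12 expressing cells and 0 silent cells at 10 or more counts, so a difference was built into its being tested. It ranged from 0 to 128 CPM with a median of 1.13 CPM in expressing cells, against 0 to 0.998 CPM with a median of 0 CPM in silent cells. It was detected in 15 of 26 expressing and 2 of 33 silent cells, and 13 expressing cells lay above the highest silent cell. Slc23a1 had a log2 fold change of 8.25 ± 1.07 (SE, edgeR adjusted p = 1.47e-06, limma-trend adjusted p = 0.000824).

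Morc1, an ATPase that takes part in transposon silencing in the male germ line, was detected in 13 of 26 expressing and 5 of 33 silent cells. Its level reached 835 CPM in expressing cells and 115 CPM in silent cells, with a log2 fold change of 8.48 ± 1.33 (edgeR adjusted p = 7.66e-05). Mok, a protein kinase related to the MAP kinases, was detected in 13 of 26 expressing and 6 of 33 silent cells, with 7.43 ± 1.25 (edgeR adjusted p = 0.000201). The uncharacterised gene 4930548H24Rik was detected in 13 of 26 expressing and 7 of 33 silent cells, with 5.74 ± 1.06 (edgeR adjusted p = 0.00112). Morc1 had 10 or more counts in 12 expressing and 2 silent cells, and Mok in 10 expressing cells and 1 silent cell, so they too met the filter through the expressing set. For 4930548H24Rik it was 9 expressing cells and 1 silent cell, so it met the filter mostly through the expressing set. With plate row as a covariate 4930548H24Rik did not pass (3.07 ± 1.56, edgeR adjusted p = 0.579). The sparsely detected Slc23a1, Morc1, Mok and 4930548H24Rik had too few counts to be tested without row B, which held 5 of the 15 expressing cells with Slc23a1, 5 of the 13 with Morc1 and 3 of the 13 with Mok.

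Some of the genes called were detected in every cell. Rif1, which sets replication timing and binds at telomeres and breaks, ranged from 742 to 3216 CPM with a median of 1409 CPM in expressing cells, against 177 to 2015 CPM with a median of 734 CPM in silent cells. Every expressing cell lay above the silent median, and 10 of 26 lay above the highest silent cell. The log2 fold change of Rif1 was 1.02 ± 0.20 (SE, edgeR adjusted p = 0.00281), and it was 1.11 in rows A to D and 0.89 in rows E to H.

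Mtf2, an accessory subunit that brings Polycomb repressive complex 2 to CpG islands, ranged from 179 to 2579 CPM with a median of 658 CPM in expressing cells, against 61.8 to 1241 CPM with a median of 321 CPM in silent cells. Mtf2 had a log2 fold change of 1.21 ± 0.24 (SE, edgeR adjusted p = 0.00338), and 22 of 26 expressing cells lay above the silent median. It was the 1 gene called by edgeR among 20 tested Polycomb genes; limma-trend called it and also Yaf2, a component of Polycomb repressive complex 1, which was lower (limma-trend adjusted p = 0.015), and DESeq2 called 1 higher. The log2 fold change of Mtf2 was 1.45 ± 0.38 in rows A to D and 0.98 ± 0.30 in rows E to H. The core subunit Ezh2 had a log2 fold change of -0.07 ± 0.28, Eed had 0.56 ± 0.23 and Suz12 had 0.53 ± 0.34, none past the threshold in edgeR.

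Genes of germ cells that are known to be kept silent by promoter methylation were tested next. Of 10 such genes, edgeR called 1 higher and 0 lower, 5 were higher at an unadjusted p under 0.05, and the median log2 fold change was 2.11. Over all genes tested, 0.427% were called higher and 3.89% were higher at an unadjusted p under 0.05. Limma-trend called 4 higher, Rpl10l, Tex19.1, Tdrd12 and Rnf17, and DESeq2 called 2 higher. The gene called by edgeR was Rpl10l, a testis-expressed copy of a ribosomal protein gene. It was detected in 18 of 26 expressing and 4 of 33 silent cells, and ranged from 0 to 171 CPM with a median of 16.4 CPM in expressing cells, against 0 to 41.3 CPM with a median of 0 CPM in silent cells. Rpl10l had a log2 fold change of 5.61 ± 1.17 (SE, edgeR adjusted p = 0.0053), but it met the filter on low counts through the expressing set alone. Tex19.1, which limits retrotransposons in germ cells and placenta, was detected in 16 of 26 expressing and 4 of 33 silent cells, with 3.81 ± 1.37 (edgeR adjusted p = 0.236, limma-trend adjusted p = 0.00843). Tdrd12, a Tudor domain protein of the piRNA pathway, was detected in 16 of 26 expressing and 3 of 33 silent cells, with 6.09 ± 1.74 (edgeR adjusted p = 0.0759, limma-trend adjusted p = 0.00546). The germ cell helicase Ddx4 was detected in 14 of 26 expressing and 13 of 33 silent cells, with 0.34 ± 1.27. Of the 22 genes listed, 10 met the filter on low counts. Tex19.1 and Tdrd12 were detected in so few silent cells that they met it mostly through expressing cells. For such genes a difference was partly built into their being tested, so the counts and the median of this list are a description.

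Imprinted genes, whose maternal marks need DNMT3L in the oocyte, had 0 calls among 21 tested by edgeR and 0 by limma-trend, and DESeq2 called 1 lower. As edgeR called 0.927% of all genes, 0 of 21 is near that share and says nothing particular to imprinted genes. At an unadjusted p under 0.05, 0 imprinted genes were higher and 4 lower, beside 3.89% and 5.68% of all genes. The 4 were Peg3 (-2.50 ± 0.72), Peg10 (-1.69 ± 0.68), Ndn (-2.42 ± 1.09) and Gnas (-0.81 ± 0.36). In edgeR the adjusted p-values of these 4 ran from 0.0793 for Peg3 to 0.419 for Ndn. The median log2 fold change of the 21 imprinted genes was -0.18. Meg3 and Rian, non-coding RNAs of the Dlk1-Dio3 domain, had medians of 53.8 and 159 CPM in expressing cells, against 49.01 and 115 CPM in silent cells.

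The called genes that were higher held a run of neighbours on chromosome 4. The run was found from the calls themselves, as the longest chain with gaps under 1000000 bases, so it is a description without a test. It stretched from Platr16 to Zfp534, at 145410245-147702553 on chromosome 4 (GRCm38). It held 10 of the 46 genes called higher, or 21.7%, and 0 called lower, whereas its 30 tested genes were 0.278% of all genes tested. Most members are KRAB-type zinc finger genes and their pseudogenes, and such proteins are known for the repression of transposable elements. Of the 30 tested genes 29 had a positive log2 fold change, with a median of 1.79. Near-identical copies can share reads, and no source used here says how such reads were assigned, so the values of single members are uncertain.

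Among the members called, Zfp978 ranged from 0.296 to 612 CPM with a median of 104 CPM in expressing cells, against 0 to 173 CPM with a median of 3.39 CPM in silent cells. Its log2 fold change was 3.38 ± 0.70 (SE, edgeR adjusted p = 0.0053), and 24 of 26 expressing cells lay above the silent median. Zfp981 ranged from 0 to 468 CPM with a median of 72.2 CPM in expressing cells, against 0 to 65.9 CPM with a median of 3.49 CPM in silent cells. Its log2 fold change was 3.27 ± 0.66 (SE, edgeR adjusted p = 0.00404), and 13 expressing cells lay above the highest silent cell. Zfp534 had a median of 136 CPM in expressing cells and 24.3 CPM in silent cells, with a log2 fold change of 1.93 ± 0.40 (edgeR adjusted p = 0.0053). The other members called were Zfp600, Zfp989, Rex2, the transcript Platr16 and the pseudogenes Gm13230, Gm13231 and Gm13034, with log2 fold changes from 2.64 for Platr16 to 4.12 for Gm13231.

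**Figure D3:**
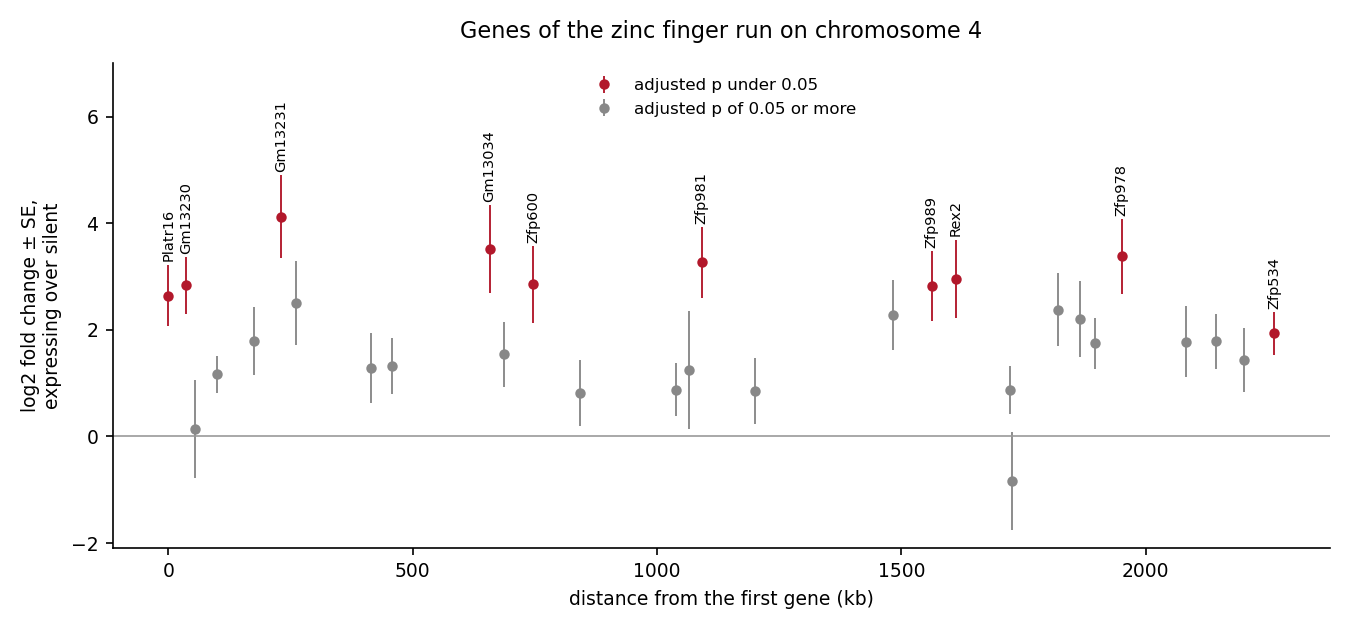
Log2 fold change of expressing over silent cells for the 30 tested genes of the chromosome 4 run, by distance of the start of each gene from that of the first, in kb. Bars are the approximate SE, red points are the 10 genes with an adjusted p under 0.05 and grey points the others. All but 1 of the 30 points lie above 0.

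Summed over the run, the level ranged from 206 to 9633 CPM with a median of 2741 CPM in expressing cells, against 65.02 to 3791 CPM with a median of 699.8 CPM in silent cells. The sets overlapped, but 25 of 26 expressing cells lay above the silent median, and 1 of 33 silent cells, H10, lay above the expressing median. The expressing cell with the lowest sum was F05. Within expressing cells, Spearman's rank correlation of the sum was 0.638 with the naive score and 0.448 with the Dnmt3l level (26 cells). Within silent cells the correlation with the naive score was 0.544 (33 cells). In rows E to H 23 of 23 tested members had a positive log2 fold change, with a median of 1.36, and in rows A to D 25 of 26 did, with a median of 2.51. The cells of both blocks took part in the calls that gave the run, so these counts are no separate check. The number of members called was 10 in all cells, 7 in rows A to D, 0 in rows E to H, 8 without row B, 2 with plate row as a covariate and 1 with the naive score as a covariate.

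Upstream sequences of the family are shown because some members of the run have similar ones. RefSeq starts on GRCm38.p6 matched 12 of the 30 tested genes. For Zfp600, Rex2, Zfp988 and Zfp534, the 240 bases that lie 250 to 11 bases before the start follow, each 5′ to 3′ on the strand of the gene. They lie at chr4:146156577-146156816 for Zfp600, chr4:147021600-147021839 for Rex2, chr4:147305354-147305593 for Zfp988, all on the plus strand, and at chr4:147702642-147702881 on the minus strand for Zfp534. Capitals mark the longest stretch common to the 4 windows.
Zfp600: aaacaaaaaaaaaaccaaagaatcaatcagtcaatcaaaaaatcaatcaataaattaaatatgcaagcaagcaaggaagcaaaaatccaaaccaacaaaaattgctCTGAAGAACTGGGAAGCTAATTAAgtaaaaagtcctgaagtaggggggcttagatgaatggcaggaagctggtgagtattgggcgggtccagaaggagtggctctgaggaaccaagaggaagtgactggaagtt
Rex2: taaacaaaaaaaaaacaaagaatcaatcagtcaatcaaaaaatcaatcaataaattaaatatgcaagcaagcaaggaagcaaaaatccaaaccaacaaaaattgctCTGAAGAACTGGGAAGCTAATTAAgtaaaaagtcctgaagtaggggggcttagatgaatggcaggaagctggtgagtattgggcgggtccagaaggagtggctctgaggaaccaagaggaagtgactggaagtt
Zfp988: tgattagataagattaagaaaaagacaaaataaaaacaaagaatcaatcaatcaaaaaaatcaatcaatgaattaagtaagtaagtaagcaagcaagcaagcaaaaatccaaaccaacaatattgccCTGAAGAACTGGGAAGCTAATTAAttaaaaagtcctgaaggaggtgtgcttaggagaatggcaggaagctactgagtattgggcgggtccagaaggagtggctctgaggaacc
Zfp534: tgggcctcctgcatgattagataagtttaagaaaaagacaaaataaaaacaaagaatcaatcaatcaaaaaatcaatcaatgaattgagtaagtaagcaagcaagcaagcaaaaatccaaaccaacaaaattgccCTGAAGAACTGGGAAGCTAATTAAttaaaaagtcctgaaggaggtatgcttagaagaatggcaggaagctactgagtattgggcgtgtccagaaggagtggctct

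Aligned end to end, the Zfp600 and Rex2 windows shared 239 bases (99.6%), and the Zfp988 and Zfp534 windows shared 222 (92.5%). Between these pairs the share ran from 78.3% for Zfp600 and Zfp534 to 82.9% for Rex2 and Zfp988. Not all windows of the run were alike: the Zfp600 window shown and that of Zfp993 shared 51.25%. The common stretch, CTGAAGAACTGGGAAGCTAATTAA, is 24 bases long. Searched on both strands, it occurred in 8 of 32851 RefSeq windows of the same length and place (0.0244%), and all 8 belong to tested genes of the run. These are Zfp980, Zfp987, Zfp600, Rex2, Zfp988, Zfp982, Zfp985 and Zfp534. All 8 had a positive log2 fold change and 3 of them were called, beside 29 positive and 10 called among the 30 tested genes of the run. The 3 called, Zfp600, Rex2 and Zfp534, are among the 4 whose windows gave the stretch. Since the stretch was read off 4 of these windows, its presence there is no result. Each of the 4 windows holds 1 CpG, against a median of 5 (quartiles 2 and 15) over all windows, of which 19.8% hold 1 or fewer. Other windows of the run hold from 1 CpG, as for Zfp980, to 11 in 1 window of Zfp982. The match of the stretch is a description of letters, not of a binding site.

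Across all 61 cells, the genes most like Dnmt3l in rank were Dppa5a (Spearman's rank correlation 0.690), Gm6798 (0.686), Zfp989 (0.684), Rex2 (0.680) and Zfp534 (0.680), out of 10867 genes compared. These values rest in large part on the cells at 0 and are given as a description, since the cells share a plate and differ in depth.

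Among the genes lower in expressing cells, some were at 0 in most of those cells. Of these, Krt19 and Dsp met the filter on low counts through the silent set alone. Krt19, a keratin of simple epithelia, was detected in 2 of 26 expressing and 21 of 33 silent cells. It ranged from 0 to 75.7 CPM with a median of 0 CPM in expressing cells, against 0 to 1087 CPM with a median of 48.1 CPM in silent cells. Krt19 had a log2 fold change of -5.77 ± 1.31 (SE, edgeR adjusted p = 0.0129, limma-trend adjusted p = 0.00113). Dsp, the desmosomal plaque protein desmoplakin, was detected in 4 of 26 expressing and 27 of 33 silent cells. Its level reached 145 CPM in expressing cells, against 856 CPM with a median of 99.7 CPM in silent cells, and its log2 fold change was -5.14 ± 1.19 (edgeR adjusted p = 0.0152). In rows A to D the log2 fold changes were -7.46 ± 1.70 for Krt19 and -7.46 ± 1.49 for Dsp, and both passed there. Neither passed in rows E to H alone, where the log2 fold changes were -7.13 for Krt19 and -5.29 for Dsp. Without row B they were -5.88 ± 1.63 for Krt19 (edgeR adjusted p = 0.0968) and -4.34 ± 1.37 for Dsp (edgeR adjusted p = 0.184).

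S100a10, the partner of annexin A2 at the membrane, was detected in every cell. It ranged from 34.9 to 2632 CPM with a median of 239 CPM in expressing cells, against 93.9 to 3199.8 CPM with a median of 1537 CPM in silent cells. The ranges overlapped widely, but 24 of 26 expressing cells lay below the silent median. Its log2 fold change was -1.68 ± 0.36 (SE, edgeR adjusted p = 0.00822). The integrin subunit Itgb1 had a median of 203 CPM in expressing cells and 593 CPM in silent cells. No expressing cell lay above the silent median for Itgb1, and its log2 fold change was -1.53 ± 0.33 (edgeR adjusted p = 0.00863). S100a10 had -2.58 ± 0.40 in rows A to D and -1.21 ± 0.57 in rows E to H, and Itgb1 had -1.30 ± 0.43 in rows A to D and -1.76 ± 0.58 in rows E to H. With plate row as a covariate S100a10 passed (edgeR adjusted p = 0.0352) and Itgb1 did not (edgeR adjusted p = 0.0549). Without row B, S100a10 had -1.65 ± 0.43 (edgeR adjusted p = 0.0693) and Itgb1 still passed.

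**Figure D4:**
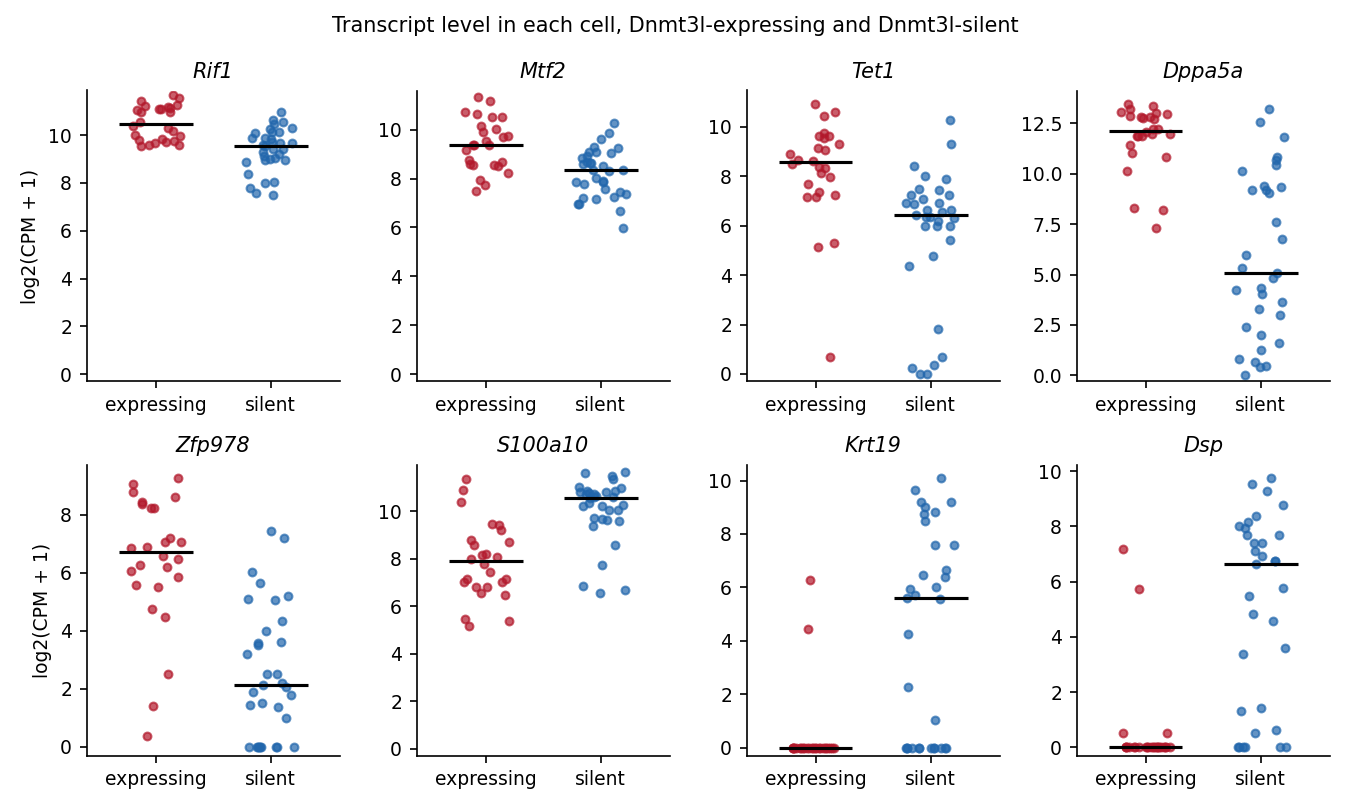
Level of 8 genes in each of 26 expressing cells (red, left) and 33 silent cells (blue, right), as log2(CPM + 1); black bars are medians. The sets overlap for each gene, with Rif1 above the silent median in all 26 expressing cells and Krt19 at 0 in all but 2 of them.

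Arhgef5, a guanine nucleotide exchange factor, had 0 counts in all 26 expressing cells and was detected in 18 of 33 silent cells, where it reached 194 CPM. Pooled over cells and against a floor of 3 counts over the expressing set, it was at least 1188-fold lower in expressing cells. Gsn, the actin-severing protein gelsolin, likewise had 0 counts in expressing cells and was detected in 11 of 33 silent cells, at least 1426-fold lower. Both genes passed the filter on low counts through the silent set alone, so a difference was built into their being tested, and the values are a description.

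The other genes named by the smallest p were lower by less. Ptp4a2, a membrane-linked phosphatase, had -0.73 ± 0.16, and Pdia3, a disulphide isomerase of the endoplasmic reticulum, had -1.10 ± 0.25. Rbms1, an RNA-binding protein, had -1.92 ± 0.45, and the myosin light chain Myl12a had -0.77 ± 0.18. The glucose transporter Slc2a3 had -1.41 ± 0.34 and the X-linked Bex1 had -0.93 ± 0.22. Mir7009 had -3.56 ± 0.83, but it is annotated inside Anxa5 on the same strand, and reads of the host gene cannot be told from it. Their edgeR adjusted p-values ran from 0.00798 for Ptp4a2 to 0.0175 for Bex1. Without row B, Ptp4a2 still passed and the other 6 did not, with edgeR adjusted p-values from 0.0746 for Pdia3 to 0.112 for Slc2a3. Ptp4a2 and Mir7009 also passed with plate row as a covariate and the other 5 did not, with edgeR adjusted p-values from 0.0725 for Rbms1 to 0.188 for Pdia3.

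From the remaining called genes, a few were picked after their values were seen. Among these, Rarg and Rpl39l met the filter on low counts through the expressing set alone, and Wls through the silent set alone. Tpm1, a tropomyosin of actin filaments, had a median of 141 CPM in expressing cells and 1232 CPM in silent cells, with a log2 fold change of -1.77 ± 0.45 (edgeR adjusted p = 0.0304). Wls, the carrier that brings Wnt proteins to the surface, was detected in 10 of 26 expressing and 30 of 33 silent cells, with -4.00 ± 1.04 (edgeR adjusted p = 0.04). Wls did not pass without the single cell of highest Dnmt3l (-3.90 ± 1.06, edgeR adjusted p = 0.0622), and Tpm1 did not without the 5 cells low in chromosome 14 (-1.74 ± 0.47, edgeR adjusted p = 0.06). On the higher side, the retinoic acid receptor Rarg was detected in 18 of 26 expressing and 5 of 33 silent cells, with 5.09 ± 1.30 (edgeR adjusted p = 0.0307), and it did not pass without the cell of fewest genes and the cell of highest mitochondrial share (4.81 ± 1.30, adjusted p = 0.0573). The ribosomal protein copy Rpl39l was detected in 13 of 26 expressing and 3 of 33 silent cells, with 5.53 ± 1.27 (edgeR adjusted p = 0.0134). Wls and Rpl39l also passed with plate row as a covariate, and Tpm1 (edgeR adjusted p = 0.103) and Rarg (edgeR adjusted p = 0.278) did not.

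Of 18 genes of formative and primed cells tested, edgeR called Krt19 lower and 0 higher, limma-trend called 3 lower and 1 higher, and DESeq2 called 4 lower. The 3 lower in limma-trend were the keratins Krt8, Krt18 and Krt19, and the 1 higher was Tcf15. In edgeR 2 were higher and 4 lower at an unadjusted p under 0.05, the 4 being these keratins and Cdh2. Of the 18 genes 12 had a positive and 6 a negative log2 fold change, and the median was 0.59. The lower keratins are thus no reading of the list as a whole. Fgf5, the classical marker of the primed epiblast, was detected in 6 of 26 expressing and 11 of 33 silent cells, with -1.04 ± 1.27. Otx2, a factor of the formative state, was detected in 13 of 26 expressing and 8 of 33 silent cells, with 1.93 ± 1.25. The keratin Krt8 had a median of 1.16 CPM in expressing cells and 399 CPM in silent cells, with -3.68 ± 1.02 (edgeR adjusted p = 0.0644, limma-trend adjusted p = 0.00418).

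Markers of early lineages were tested as lists. Of 7 mesendoderm genes tested, 0 were called by edgeR, 6 were lower at an unadjusted p under 0.05, all 7 had a negative log2 fold change and the median was -2.67. Limma-trend called 2 of them lower and DESeq2 called 0. T, the brachyury factor of the primitive streak, was detected in 15 of 26 expressing and 24 of 33 silent cells, with a median of 0.661 CPM in expressing cells and 71.2 CPM in silent cells and a log2 fold change of -2.67 ± 0.99 (edgeR adjusted p = 0.254). Mixl1, another streak factor, was detected in 5 of 26 expressing and 12 of 33 silent cells, with -4.46 ± 1.34 (edgeR adjusted p = 0.103). Of 5 neurectoderm genes tested, edgeR called 0, limma-trend called 2 lower and DESeq2 called 1 lower, with a median log2 fold change of -0.34. Of 4 trophectoderm genes tested, 0 were called by edgeR, limma-trend or DESeq2, with a median of -1.73.

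Of 5 primitive endoderm genes tested, edgeR called 2 basement membrane genes lower, limma-trend called 1 and DESeq2 called 2. Sparc had a median of 175 CPM in expressing cells and 501 CPM in silent cells, with a log2 fold change of -1.47 ± 0.37 (edgeR adjusted p = 0.0274). Col4a1 was detected in 4 of 26 expressing and 13 of 33 silent cells, with -4.83 ± 1.27 (edgeR adjusted p = 0.0413, limma-trend adjusted p = 0.0809). Without the single cell of highest Dnmt3l, Col4a1 had -4.74 ± 1.29 (edgeR adjusted p = 0.0622), and without row B Sparc had -1.13 ± 0.40 (edgeR adjusted p = 0.34). Neither passed with plate row as a covariate, with edgeR adjusted p-values of 0.282 for Sparc and 0.276 for Col4a1. The defining factors of that lineage were near 0, with Gata4 detected in 2 expressing and 0 silent cells, Gata6 in 0 expressing and 3 silent cells and Sox17 in 1 expressing and 0 silent cells. The summed level of the 15 primitive endoderm markers ranged from 45.3 to 1676 CPM in expressing cells, against 198 to 2175 CPM in silent cells.

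Fibroblasts are used as feeders in some ES cultures. The summed level of 14 fibroblast markers ranged from 12.8 to 937 CPM in expressing cells, against 86.4 to 5716 CPM in silent cells. Of 3 members tested, 0 were called by edgeR, 2 were lower at an unadjusted p under 0.05, and limma-trend and DESeq2 each called 1 lower. The defining collagen gene Col1a1 was detected in 1 expressing and 6 silent cells, Dcn in 1 expressing and 2 silent cells and Thy1 in 4 expressing cells and 1 silent cell, and Postn was at 0 in all cells compared. The part of other cell types in the results was not tested.

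Interferon-response genes, 13 tested, had 0 calls by edgeR and 0 by DESeq2, while limma-trend called 3 lower, and 5 were lower and 0 higher at an unadjusted p under 0.05, with a median log2 fold change of -1.66. The guanylate-binding gene Gbp2 had a median of 0 CPM in expressing cells, where it was detected in 7 of 26, and 240 CPM in silent cells, where it was detected in 27 of 33, with -2.36 ± 1.13 (edgeR adjusted p = 0.477, limma-trend adjusted p = 0.00338). Immediate early genes, 9 tested, had 0 calls by edgeR and 3 lower at an unadjusted p under 0.05, with a median of -1.53; limma-trend called 2 lower and DESeq2 called 1. Junb, an AP-1 subunit, had a median of 5.75 CPM in expressing cells and 83.4 CPM in silent cells, with -2.37 ± 0.89 (edgeR adjusted p = 0.267).

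Of 30 S phase and 36 G2/M genes tested, 0 were called by edgeR, limma-trend or DESeq2. At an unadjusted p under 0.05 there were 0 S phase genes and 2 G2/M genes, both higher, and the median log2 fold changes were -0.07 and 0.33. The Nodal list, 15 tested, had a median log2 fold change of -0.57, 0 calls by edgeR and 3 genes lower at an unadjusted p under 0.05, while limma-trend called 2 lower and DESeq2 called 1. The FGF list, 15 tested, had a median of -0.12, 0 calls by edgeR and DESeq2, and 1 gene higher and 3 lower at an unadjusted p under 0.05, while limma-trend called 1 higher and 2 lower. Fgf4, the autocrine signal that primes ES cells for differentiation, was detected in 16 of 26 expressing and 7 of 33 silent cells, with a log2 fold change of 3.40 ± 1.17 (edgeR adjusted p = 0.196). Lefty1, an inhibitor of Nodal, had a median of 1.71 CPM in expressing cells and 80.6 CPM in silent cells, with -0.77 ± 1.10.

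**Figure D5:**
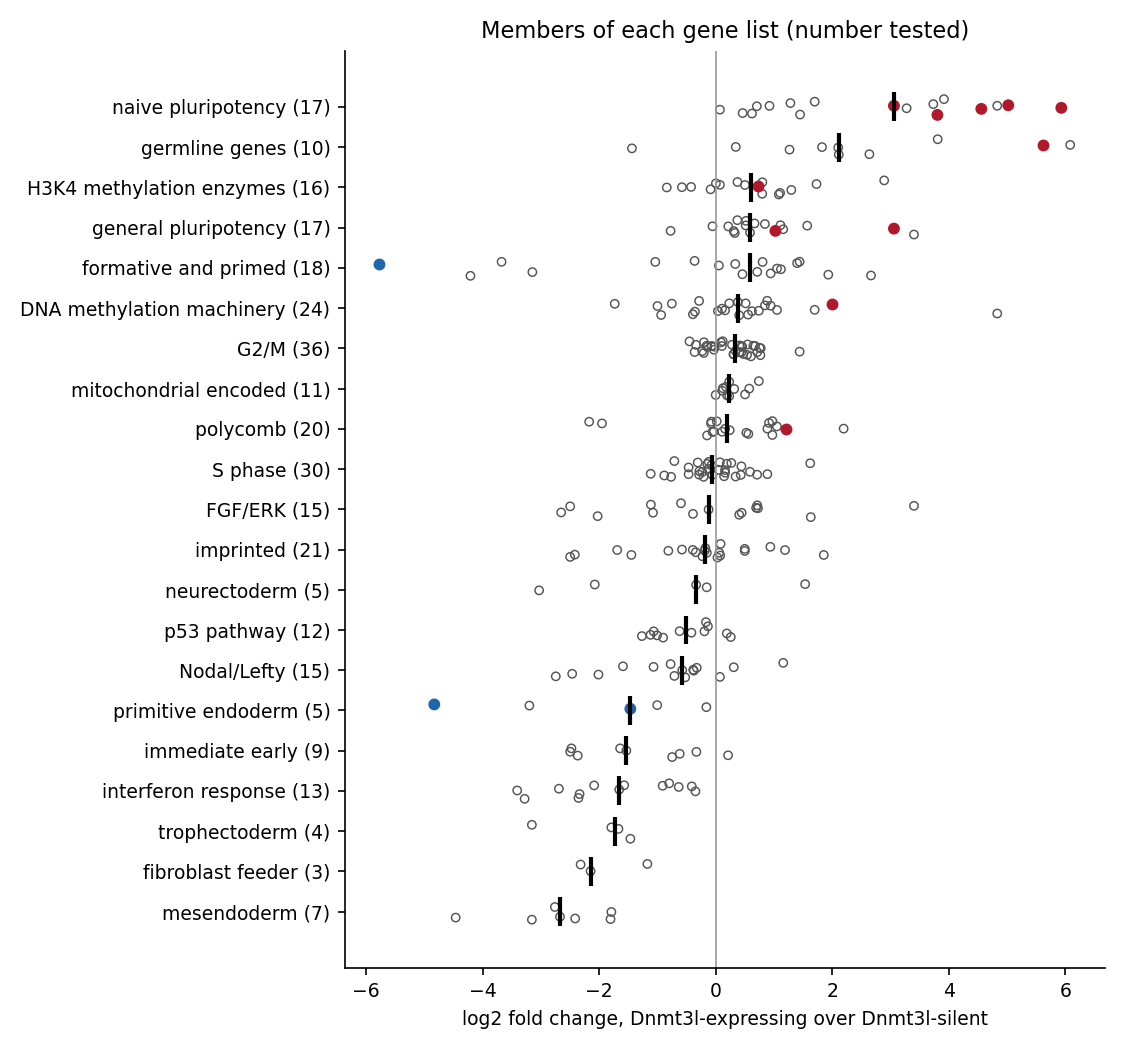
Log2 fold change of expressing over silent cells for the tested members of each gene list with at least 3 of them. Circles are genes, filled red or blue where the adjusted p is under 0.05, and black bars are list medians. The naive list has the highest median, 3.06, and the mesendoderm list the lowest, -2.67.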

How the data were processed

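Raw counts per gene of 61 serum/LIF cells were used as deposited. The build is GRCm38 and the tools named are SAMtools 0.1.18, bedtools 2.19.1, GSNAP and DESeq2, per the submitters' processing notes; no source used here gives the counting rule or the annotation release. A deposited normalized table was not used. Of 36205 identifiers 34880 were matched to symbols in GENCODE M21; 95 spike-in rows, with at most 4 counts in a cell, stayed out. Total counts per cell ran from 2417702 to 6787261. The labels name no molecular identifiers, so limits from counts cover counting error only.

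Genes that reached 10 counts in 10 or more of the compared cells were fitted with edgeR 4.0.16 (quasi-likelihood F test, TMM, share of genes detected as a covariate, R 4.3.3), with Dnmt3l left out. The SE is the absolute log2 fold change over the square root of F, an approximation. Alternatives used limma 3.58.1 (log2(CPM + 1)) and DESeq2 1.42.0, other filters, covariates, cells and plate rows. Library properties were compared by permutation of cells (100000 resamples, two-sided). The edgeR fit alone was tested on simulated data, where it made more false calls than the threshold allows. Named genes were the 12 with the smallest p in each direction among called genes detected in at least 50% of the cells of the higher set, the methylation writers and erasers, called list members with up to 4 others in list order, neighbours within 500 kb and the 5 genes most like Dnmt3l. The members, the lists and the tests were chosen with earlier results of these data known.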

Additional observations from a re-analysis of the deposited data

How the results depend on the processing

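The 100 genes called in all cells became 198 with the DESeq2 test (62 higher, 31.3%, against 46% of the 100), 354 with limma-trend, 4923 of 21170 with no filter on low counts, 45 with a filter of at least 20 cells, 12 with the naive score as a covariate, 157 with cell cycle scores as covariates, 45 in plate rows A to D and 0 in rows E to H (195 at an unadjusted p under 0.05). Without plate row B, an alternative added after the data were seen, the count was 42. With plate row as a covariate, also added then, it was 74, but 36 of these were among the 100 and 64 of the 100 were lost. In the other 10 settings the count ran from 67 to 111. The cause of these shifts was not tested. Fewer cells entered the fits of rows A to D, of rows E to H and without row B. The fit with plate row as a covariate used all 26 expressing and 33 silent cells. Each called gene that could be tested kept its direction in all 20 settings. These settings reuse cells in which the genes were called, so the shared direction is no separate check. Of 70 genes followed by name, 3 turned: Hells to -0.12 in rows E to H and -0.0691 without row B, Tdg to -1.75 in rows E to H, -0.0186 with the limit at 100 Dnmt3l counts, -0.14 in thinned counts and -0.13 with plate row as a covariate, and T to 0.13 with the naive score as a covariate. None of the 3 was called. No library property crossed an adjusted p of 0.05 with medians in place of means. No paired analysis was possible because each sample is 1 cell and cells carry no replicate numbers shared between the sets. Single-cell capture limits what a count of 0 shows.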
